A study of Mus musculus with 6 samples.

Results

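The 70 genes described here are those of the interferon system that a name rule found among the 13026 genes of a deposited kidney expression table. The rule took, by gene symbol, the Ifi, Ifit, Ifitm, Irf, Gbp, Stat, Oas, Isg and Irgm families, the receptors of type I interferon and of interferon gamma, Parp9 to Parp14, and Igtp, Iigp1, Usp18, Rsad2, Bst2, Ddx58, Rtp4 and Xaf1. The rule itself used no measured value, though the members were chosen with earlier results of these data known. Isg20l2 matched by its name alone. RNA of whole kidney was sequenced in 6 libraries from adult male mice on a C57BL/6 J background, 3 of genotype LIGHT-/- (LIGHTKO) and 3 of genotype LIGHT+/+ (WT). LIGHT, the product of Tnfsf14, is a ligand of the tumour necrosis factor superfamily made by activated T cells and other immune cells. Before the kidneys of all 6 libraries were taken, the blood supply of both kidneys was cut off for 32 min and then let back for 24 h. No unoperated kidney was analysed here, so the levels below are all of injured tissue. How the allele was made, and whether its loss is limited to some cells, was not stated in the labels. Tnfsf14 was not analysed here, and the labels of genotype could therefore not be checked. The libraries of a group are numbered from 1 to 3, and nothing says that each came from a separate mouse, so the p-values measure only the spread between these libraries.

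Type I interferons, which many cell types can release, bind the receptor pair Ifnar1 and Ifnar2 and lead to a complex with Stat2 and Irf9 that binds the interferon-stimulated response element (ISRE) of antiviral genes. Interferon gamma, made mainly by T cells and natural killer (NK) cells, binds Ifngr1 and Ifngr2 and leads to transcription factor dimers that bind the gamma-activated site (GAS), with Irf1 as an early target that acts on further genes. Many interferon-stimulated genes answer to both, so a list can be biased to a type of interferon but is not exclusive to it. For this comparison 23 of the 70 genes were placed on a type I-biased list, with the IFIT and OAS proteins, Isg15 and other antiviral effectors. A gamma-biased list held 16, namely the 13 interferon-inducible GTPases, Irf1, Irf8 and Ifi30. The remaining 31 genes were on neither list.

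The stretches before the transcription start of 8 genes treated below are shown. These genes are the GTPases Igtp, Irgm2, Irgm1 and Gbp3 on the gamma-biased list and Ifit1, Ifit3, Ifit3b and Isg15 on the type I-biased list. Each stretch is the 200 bases up to the start on the gene's own strand, from RefSeq on GRCm38.p6, written 5′ to 3′. They lie at chr11:58199356-58199555 (plus strand) for Igtp, chr11:58214777-58214976 (plus strand) for Irgm2, chr11:48871421-48871620 (minus strand) for Irgm1 and chr3:142559844-142560043 (plus strand) for Gbp3. Those of the type I-biased genes lie at chr19:34640689-34640888 (plus strand) for Ifit1, chr19:34583329-34583528 (plus strand) for Ifit3, chr19:34607757-34607956 (plus strand) for Ifit3b and chr4:156200819-156201018 (minus strand) for Isg15. Capitals mark every match to the ISRE letters GAAANNGAA or the GAS letters TTCNNNGAA on either strand, and matches that overlap form 1 capital run.
Igtp: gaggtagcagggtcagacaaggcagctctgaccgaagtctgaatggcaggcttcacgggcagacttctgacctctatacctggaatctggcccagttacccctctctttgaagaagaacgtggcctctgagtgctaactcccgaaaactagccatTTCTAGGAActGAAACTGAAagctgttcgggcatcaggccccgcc
Irgm2: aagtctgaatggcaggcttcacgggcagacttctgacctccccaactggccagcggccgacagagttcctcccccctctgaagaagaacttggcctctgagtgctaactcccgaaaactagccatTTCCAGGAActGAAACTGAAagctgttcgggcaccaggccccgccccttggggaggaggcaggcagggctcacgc
Irgm1: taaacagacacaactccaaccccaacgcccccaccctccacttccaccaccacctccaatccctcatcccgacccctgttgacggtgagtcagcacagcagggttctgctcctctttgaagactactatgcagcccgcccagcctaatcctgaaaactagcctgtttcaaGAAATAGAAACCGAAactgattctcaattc
Gbp3: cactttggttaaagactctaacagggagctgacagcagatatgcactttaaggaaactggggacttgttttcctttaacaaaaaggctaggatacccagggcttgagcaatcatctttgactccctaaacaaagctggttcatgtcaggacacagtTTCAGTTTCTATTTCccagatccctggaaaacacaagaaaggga
Ifit1: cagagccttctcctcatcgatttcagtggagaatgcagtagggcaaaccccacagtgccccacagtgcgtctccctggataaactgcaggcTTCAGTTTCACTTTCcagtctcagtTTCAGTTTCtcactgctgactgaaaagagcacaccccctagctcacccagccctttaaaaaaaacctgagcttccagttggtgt
Ifit3: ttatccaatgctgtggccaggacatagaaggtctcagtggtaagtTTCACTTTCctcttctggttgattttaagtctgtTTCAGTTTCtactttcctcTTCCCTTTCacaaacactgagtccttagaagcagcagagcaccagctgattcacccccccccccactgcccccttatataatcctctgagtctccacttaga
Ifit3b: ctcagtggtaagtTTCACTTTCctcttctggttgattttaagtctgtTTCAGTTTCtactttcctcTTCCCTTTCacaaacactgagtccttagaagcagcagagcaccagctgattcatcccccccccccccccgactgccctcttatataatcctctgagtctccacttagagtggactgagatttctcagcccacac
Isg15: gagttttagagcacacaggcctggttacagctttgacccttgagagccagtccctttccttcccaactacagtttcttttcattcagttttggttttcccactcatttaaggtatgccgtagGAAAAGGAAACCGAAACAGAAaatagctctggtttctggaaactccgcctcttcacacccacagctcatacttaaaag

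Igtp and Irgm2 each held a GAS match followed by an ISRE match, with first bases 45 and 34 bases before the start in Igtp, and 75 and 64 bases before it in Irgm2. The stretches of these neighbouring genes shared an identical run of 40 bases. Irgm1 and Gbp3 held 2 overlapping ISRE matches each and no GAS match. Gbp3 has another RefSeq start, whose window (chr3:142560106-142560405) held no ISRE or GAS match. The start shown for Gbp3 was taken because its window held ISRE matches. Ifit1, Ifit3, Ifit3b and Isg15 held 3 ISRE matches each and no GAS match, and Ifit3 and Ifit3b shared an identical run of 119 bases. Over windows from 250 bases before to 50 bases after the start, which were found for 53 of the members, the ISRE letters were in 26 members (49.1%), against 8.7% of all genes of the table with a window. They were in 12 of 18 type I-biased genes (66.7%) and in 7 of 11 gamma-biased genes (63.6%). The GAS letters were in 17 members (32.1%), against 8.47% of all genes of the table. Of the type I-biased genes 4 of 18 (22.2%) held them, and of the gamma-biased genes 6 of 11 (54.5%). Every stretch shown held a match, whereas the windows of Ifi30 and Oasl1, which are not shown, held no ISRE or GAS match. All such matches describe letters in a window and are not measured binding sites.

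Values are FPKM, a level scaled for transcript length and for the library's total. They can be compared between genes of a library, and only approximately between libraries, as their sums differ. They summed to between 299667 and 318493 per library, and the number of reads behind them is unknown. LIGHTKO library 3 stood apart from the other libraries. Its Pearson correlation with them across genes was 0.934 to 0.956, against values of up to 0.989 elsewhere, and its score on the leading principal component, which held 55.31% of the variance, was 48.98, with scores of -15.65 to -0.05 in the rest. Results below are therefore also given without it. All 11 markers of kidney epithelium fixed for checking the tissue were in the table. They summed to 1188, 1400 and 2525 FPKM in LIGHTKO libraries 1 to 3, against 1212, 1454 and 1520 FPKM in WT libraries 1 to 3. Of the 11 markers 8 had their highest value in LIGHTKO library 3 (72.7%), against 29.8% of all genes tested. In whole tissue, fewer cells of a type and less RNA per cell cannot be told apart.

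The interferon genes spanned a wide range of levels. Averaged over the 6 libraries, 3 members (Ifitm2, Ifitm3 and Ifi30) had at least 50 FPKM, 13 had 10 to 50 FPKM, 45 had 1 to 10 FPKM and 9 were below 1 FPKM. The table holds a gene only where the higher of its group means is at least about 0.5 FPKM. For 6 members (Gbp5, Gbp6, Gbp10, Oas1g, Oas2 and Ifi205) only the LIGHTKO mean reached that level, and for 1 (Ifi27l2b) only the WT mean did. Such genes are in the table because of the group in which they are high, and they add nothing to a count of direction.

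Genotypes were compared on the log2(FPKM + 1) scale with limma for the 12836 genes whose mean over all libraries was at least 0.5 FPKM, which kept 68 members and left out Gbp10 and Ifi27l2b. None of the 68 passed a Benjamini-Hochberg adjusted p under 0.05, against 15 of all genes tested (0.117%). The lowest limma adjusted p of a member was 0.592, which many members share. At an unadjusted limma p under 0.05, 9 members (13.2%) were higher in LIGHTKO, against 4.34% of all genes, and 2 (2.94%) were lower, against 3.74%. In 13 members (19.1%) every LIGHTKO library lay above every WT library, against 7.76% of all genes, and in 2 members (2.94%) every LIGHTKO library lay below, against 8.8%. The 13 include Gbp6, which the table holds only through LIGHTKO, and among the 61 members with a mean of at least 1 FPKM over all libraries 12 lay above without overlap. Among the 13 were Ifih1, Ifit1, Ifi27, Parp9, Igtp, Irgm1, Irgm2, Iigp1, Gbp3, Gbp4 and Gbp6. The 2 were Ifi30 and Oasl1. A fitted fold of at least 1.5 was reached by 7 members on the higher side (10.3%), against 3.01% of all genes, and by 0 on the lower side, against 1.75%.

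Fitted log2 fold changes of LIGHTKO over WT were above 0 in 48 of the 68 members (70.6%), against 47.9% of all genes, with a median of 0.14 against -0.01 over all genes. That count includes Gbp5, Gbp6, Oas1g, Oas2 and Ifi205, which the table holds only through LIGHTKO. Among the 61 members with a mean of at least 1 FPKM, 43 were above 0 with a median of 0.13, and 39 without LIGHTKO library 3 with a median of 0.03. Without LIGHTKO library 3 they were above 0 in 44 members (64.7%), against 46.4% of all genes, and the median was 0.04, against -0.01 over all genes. In that comparison of 2 LIGHTKO with 3 WT libraries no member passed limma's adjusted p, and 11 of all genes did (0.0857%). Members with an unadjusted p under 0.05 were then 7 on the higher side (10.3%), against 3.86% of all genes. Members without overlap were 14 on the higher side (20.6%), against 11.2% of all genes, and 2 on the lower side (2.94%), against 12.7%. Of the 68 members, 38 had their highest value in LIGHTKO library 3 (55.9%), against 29.8% of all genes tested, and 10 had their lowest value there (14.7%), against 30.3%.

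**Figure D1:**
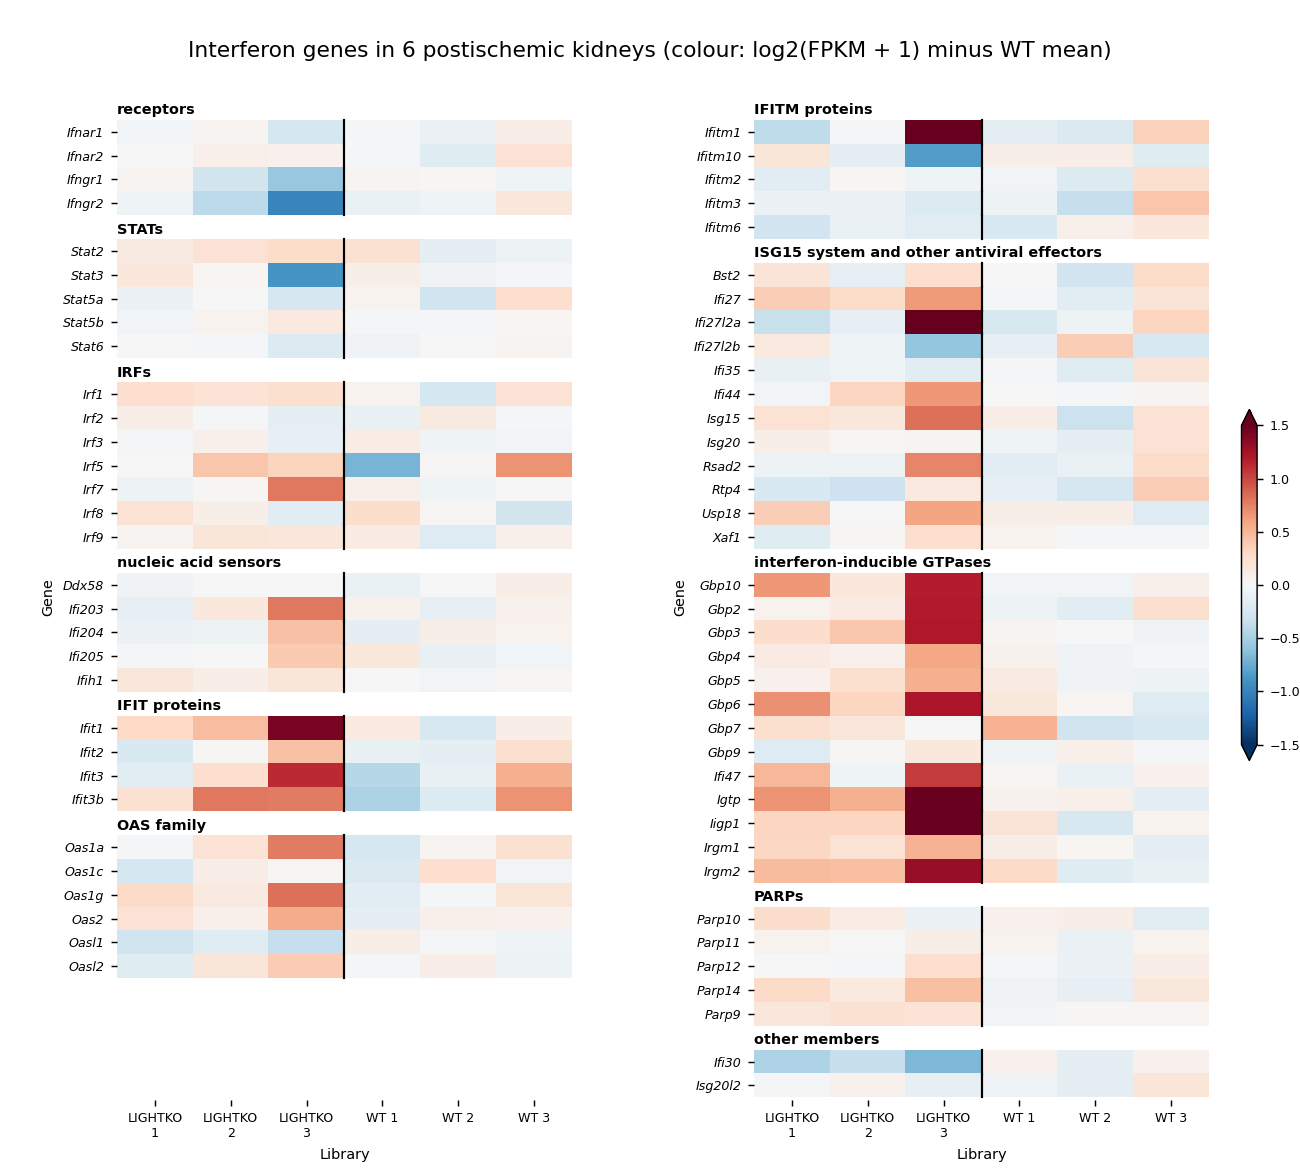
Level of 68 of the 70 genes in each library (columns, LIGHTKO left of WT), as log2(FPKM + 1) minus the mean of the 3 WT libraries, with genes in rows grouped by role. Colours saturate at 1.5 in either direction; red cells are most frequent in the column of LIGHTKO library 3, where 38 of the 68 tested genes had their highest value.

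None of the 4 receptor genes separated the genotypes. Ifnar1 and Ifnar2, the chains of the type I receptor, overlapped between the groups. Ifnar1 averaged 10.9 ± 1.28 FPKM in LIGHTKO and 11.6 ± 0.845 FPKM in WT, as mean and SD of 3 libraries each. Ifnar2 had 9.65, 10.2 and 10.1 FPKM in LIGHTKO, against 9.47, 8.38 and 11.4 FPKM in WT. Ifngr1, the ligand-binding chain of the interferon gamma receptor, had 25.2, 20.2 and 16.2 FPKM in LIGHTKO libraries 1, 2 and 3, against 25.3, 25.0 and 23.3 FPKM in WT libraries 1, 2 and 3. Ifngr2, the chain that completes the signalling receptor, had 20.8, 16.2 and 10.4 FPKM in LIGHTKO, against 20.2, 20.6 and 24.5 FPKM in WT, in the same order of libraries. In both gamma receptor chains LIGHTKO library 3 was the lowest of the 6, and LIGHTKO library 1 lay within the WT range. The log2 fold change of Ifngr2 was -0.48 ± 0.23 (SE) with a limma adjusted p of 0.598, and -0.23 without LIGHTKO library 3. That of Ifngr1 was -0.27 ± 0.16, with a limma adjusted p of 0.628, and -0.12 without that library.

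Among the signal transducers, none of Stat2, Stat3, Stat5a, Stat5b and Stat6 separated the genotypes. Stat2, which acts in type I signalling, averaged 6.48 ± 0.360 FPKM in LIGHTKO and 5.50 ± 0.921 FPKM in WT, with overlapping groups (limma adjusted p = 0.627). Stat3, the transducer of interleukin 6, had 24.0 and 22.0 FPKM in LIGHTKO libraries 1 and 2 but 11.1 FPKM in LIGHTKO library 3, while the WT libraries had 20.6 to 22.9 FPKM. Stat6, which carries the signal of interleukin 4, had 26.7, 26.0 and 22.9 FPKM in LIGHTKO, against 25.6, 26.6 and 27.5 FPKM in WT (log2 fold change -0.07 ± 0.09, limma adjusted p = 0.802).

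Of the 8 interferon regulatory factors 6 had fold changes above 0, none with a limma adjusted p under 0.05 and none with an unadjusted p under 0.05. Irf1, the early target of interferon gamma, had 8.59, 8.28 and 8.46 FPKM in LIGHTKO, against 7.29, 5.70 and 8.29 FPKM in WT. LIGHTKO library 2 was just below WT library 3, so the groups overlapped, and the log2 fold change was 0.24 ± 0.13 (SE; limma adjusted p = 0.623). Irf7, which amplifies type I interferon production, had 1.52, 1.69 and 3.59 FPKM in LIGHTKO, against 1.80, 1.54 and 1.63 FPKM in WT. Its fold change rested on LIGHTKO library 3, being 0.25 on the log2 scale with it and -0.03 without it. Irf9, the DNA-binding partner of Stat2 in the type I complex, averaged 5.20 ± 0.352 FPKM in LIGHTKO and 4.68 ± 0.653 FPKM in WT (limma adjusted p = 0.722). Irf3, the factor that starts type I interferon transcription, averaged 10.8 ± 0.854 FPKM in LIGHTKO and 11.0 ± 0.794 FPKM in WT.

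The sensors of foreign nucleic acid differed little. Ifih1, which detects long double-stranded RNA in the cytosol, had 3.60, 3.40 and 3.65 FPKM in LIGHTKO, against 3.14, 3.01 and 3.18 FPKM in WT. All LIGHTKO libraries were above all WT libraries, but the log2 fold change was 0.15 ± 0.09 (SE) with a limma adjusted p of 0.634. Ddx58 (RIG-I), the sensor of RNA with a 5′ triphosphate, averaged 8.13 ± 0.214 FPKM in LIGHTKO and 8.24 ± 0.634 FPKM in WT. The DNA-binding Ifi203, Ifi204 and Ifi205 were highest in LIGHTKO library 3, with 4.42, 3.11 and 0.946 FPKM there. In LIGHTKO libraries 1 and 2 the 3 genes lay within or near their WT ranges, and without LIGHTKO library 3 their log2 fold changes were 0.02, -0.08 and -0.01.

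The IFIT proteins, which bind viral RNA and block its translation, had fold changes above 0 in all 4 genes, and their median on the log2 scale was 0.50. Without LIGHTKO library 3 the median was 0.22 and 3 of 4 were above 0. Ifit1 had 2.41, 2.83 and 6.45 FPKM in LIGHTKO libraries 1 to 3, against 2.06, 1.34 and 1.96 FPKM in WT libraries 1 to 3. Its groups did not overlap, and LIGHTKO library 3 was more than 2-fold above any other library. The log2 fold change was 0.73 ± 0.30 (SE; limma unadjusted p = 0.0468, adjusted p = 0.592) and 0.38 without LIGHTKO library 3. Ifit3 had 11.8, 16.0 and 29.9 FPKM in LIGHTKO, against 9.63, 12.2 and 19.6 FPKM in WT. Ifit3b had 7.31, 11.3 and 11.1 FPKM in LIGHTKO, against 4.10, 5.12 and 10.3 FPKM in WT. Of the 31-base words of Ifit3 transcripts 61.8% also occur in those of its near-identical copy Ifit3b, so reads may be divided between them in ways not given here. Their sum was 19.1, 27.3 and 41.0 FPKM in LIGHTKO and 13.7, 17.3 and 29.9 FPKM in WT, with overlapping groups. Ifit2 overlapped as well, with 5.97 to 10.1 FPKM in LIGHTKO and 6.45 to 8.69 FPKM in WT (log2 fold change 0.08 ± 0.20, limma adjusted p = 0.906).

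In the OAS family, enzymes that make 2-5A to activate RNase L and their non-enzymatic relatives, 4 of 6 genes had fold changes above 0 and the median log2 fold change was 0.20, against 0.04 without LIGHTKO library 3. Oasl1, which in mouse represses translation of Irf7, and Oas1c were below 0. Oas1c averaged 1.64 ± 0.331 FPKM in LIGHTKO and 1.74 ± 0.450 FPKM in WT, with overlapping groups. Oasl1 had 1.27, 1.46 and 1.19 FPKM in LIGHTKO, against 1.97, 1.74 and 1.66 FPKM in WT, so that every LIGHTKO library lay below every WT library. Its log2 fold change was -0.27 ± 0.11 (SE; limma unadjusted p = 0.0390, adjusted p = 0.592) and -0.24 without LIGHTKO library 3. Oas1a and Oas1g are copies of each other in large part, and their sum was 2.62, 3.01 and 5.62 FPKM in LIGHTKO, against 1.74, 2.47 and 3.11 FPKM in WT. Only LIGHTKO library 3 was above all WT libraries in that sum. Oas2, below 0.5 FPKM in each WT library, had 0.619, 0.467 and 1.05 FPKM in LIGHTKO.

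Isg15, a ubiquitin-like modifier induced early by type I interferon, had 7.31, 6.97 and 11.7 FPKM in LIGHTKO, against 6.69, 4.70 and 7.32 FPKM in WT. LIGHTKO library 3 was above the WT range, whereas LIGHTKO libraries 1 and 2 lay within it. The log2 fold change was 0.40 ± 0.22 (SE; limma adjusted p = 0.620), and 0.19 without LIGHTKO library 3. Usp18, the protease that removes Isg15 and damps the type I receptor, averaged 1.44 ± 0.493 FPKM in LIGHTKO and 0.931 ± 0.212 FPKM in WT (limma adjusted p = 0.620). Ifi27, a small mitochondrial protein, was the only 1 of the 11 tested genes of this group whose groups did not overlap. It had 26.6, 25.0 and 32.4 FPKM in LIGHTKO, against 20.1, 18.1 and 23.5 FPKM in WT, a log2 fold change of 0.43 ± 0.14 (SE; limma unadjusted p = 0.0189, adjusted p = 0.592) and of 0.32 without LIGHTKO library 3. Its neighbour Ifi27l2a had 8.32, 9.84 and 48.6 FPKM in LIGHTKO, against 8.98, 10.2 and 13.7 FPKM in WT. The log2 fold change of Ifi27l2a was 0.54 with LIGHTKO library 3 and -0.23 without it. Rsad2 (viperin), an antiviral radical enzyme, showed the same 1-library pattern with 7.06, 7.05 and 13.1 FPKM in LIGHTKO, against 6.55, 6.92 and 9.31 FPKM in WT. Bst2 (tetherin), which holds budding virus at the cell surface, averaged 25.2 ± 3.58 FPKM in LIGHTKO and 23.5 ± 4.74 FPKM in WT. Ifi44, a cytosolic protein of the response, averaged 3.27 ± 1.01 FPKM in LIGHTKO and 2.37 ± 0.0847 FPKM in WT (limma adjusted p = 0.624).

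The IFITM proteins, which block fusion of viruses with cell membranes, included the most abundant genes of the set, and none of the 5 separated the genotypes. Ifitm3 had 102, 102 and 93.9 FPKM in LIGHTKO, against 103, 85.4 and 145 FPKM in WT. Ifitm2 had 98.2, 111 and 104 FPKM in LIGHTKO, against 107, 94.8 and 130 FPKM in WT. In both genes the LIGHTKO values lay inside the WT range. Ifitm1 had 3.77, 5.07 and 17.0 FPKM in LIGHTKO, against 4.66, 4.34 and 6.88 FPKM in WT, and its log2 fold change was 0.38 with LIGHTKO library 3 and -0.20 without it. The median over the 5 IFITM genes was -0.13, with 1 gene above 0, and -0.09 without LIGHTKO library 3. With libraries weighted by their spread in the fit this median was 0.04 and 3 genes were above 0, so its direction depends on the weighting.

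The interferon-inducible GTPases gave 7 of the 13 members that lay higher in LIGHTKO without overlap. That is 7 of the 12 GTPases tested, Gbp6 among them, against 7.76% of all genes. These guanylate-binding proteins and immunity-related GTPases act against intracellular pathogens and are strongly induced by interferon gamma. Of the 12 tested, 11 had fold changes above 0, and the median was 0.47 on the log2 scale. Without LIGHTKO library 3, 11 of 12 were still above 0 and the median was 0.24. Restricted to the 10 GTPases with a mean of at least 1 FPKM, 9 were above 0 and the medians were the same, 0.47 and 0.24. Of these 10, 6 lay higher in LIGHTKO without overlap. LIGHTKO library 3 exceeded every WT library in 11 of the 12, and LIGHTKO libraries 1 and 2 did so in 8 each. The 12 include Gbp5 and Gbp6, which the table holds only through LIGHTKO. Over all genes tested the shares above every WT library were 18.4% in LIGHTKO library 1, 30.2% in library 2 and 35.4% in library 3.

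Igtp (Irgm3, ENSMUSG00000078853.8, at chr11:58199556-58207591 on the plus strand of GRCm38 in GENCODE M21) regulates the other immunity-related GTPases. It had 8.52, 7.60 and 15.6 FPKM in LIGHTKO libraries 1 to 3, against 5.24, 5.27 and 4.40 FPKM in WT libraries 1 to 3. All LIGHTKO libraries lay well above all WT libraries. Its log2 fold change was 0.90 ± 0.25 (SE), a 1.86-fold difference (limma unadjusted p = 0.00938, adjusted p = 0.592), and 0.60 without LIGHTKO library 3 (adjusted p = 0.343). Irgm2, a regulator of the same class whose annotated gene overlaps Igtp on the same strand, had 8.01, 7.87 and 15.1 FPKM in LIGHTKO, against 6.95, 4.71 and 5.03 FPKM in WT. The groups did not overlap, and the log2 fold change was 0.74 ± 0.26 (SE), and 0.46 without LIGHTKO library 3. As reads of these overlapping genes could be shared, their sum was also taken, and it was 16.5, 15.5 and 30.7 FPKM in LIGHTKO, against 12.2, 9.99 and 9.43 FPKM in WT. Irgm1 (ENSMUSG00000046879.6, chr11:48861968-48871683, minus strand), the third regulator of the class, had 12.7, 11.9 and 14.9 FPKM in LIGHTKO, against 10.9, 10.3 and 9.10 FPKM in WT. It had the highest mean FPKM of the 13 GTPases, with a log2 fold change of 0.35 ± 0.12 (SE; limma adjusted p = 0.592) and of 0.26 without LIGHTKO library 3.

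Iigp1, an effector that coats and disrupts pathogen vacuoles, had 4.33, 4.32 and 14.1 FPKM in LIGHTKO, against 3.86, 2.61 and 3.42 FPKM in WT. LIGHTKO libraries 1 and 2 were just above the highest WT library, and LIGHTKO library 3 was far above it. The log2 fold change was accordingly 0.82 ± 0.41 (SE; limma adjusted p = 0.598) with all libraries and 0.32 without LIGHTKO library 3. Among the guanylate-binding proteins, Gbp3 (ENSMUSG00000028268.14, chr3:142560026-142573209, plus strand) had 3.37, 3.84 and 7.42 FPKM in LIGHTKO, against 2.76, 2.67 and 2.53 FPKM in WT. Its log2 fold change was 0.62 ± 0.24 (SE; limma unadjusted p = 0.0391, adjusted p = 0.592) and 0.33 without LIGHTKO library 3. Gbp6 had 1.31, 0.785 and 2.32 FPKM in LIGHTKO, against 0.605, 0.465 and 0.248 FPKM in WT. Gbp6 shares 74.2% of its 31-base words with other genes and Gbp10 shares 89.8%, and the sum of both was 2.00, 0.986 and 3.77 FPKM in LIGHTKO, against 0.658, 0.515 and 0.387 FPKM in WT. The groups did not overlap in the sum either, though both genes had WT means under 0.5 FPKM. Gbp4 differed by a small margin, with 1.22, 1.13 and 2.04 FPKM in LIGHTKO, against 1.12, 0.964 and 1.02 FPKM in WT (limma adjusted p = 0.640). Gbp2, Gbp5, Gbp7, Gbp9 and Ifi47 overlapped between the groups. Gbp9 averaged 2.63 ± 0.430 FPKM in LIGHTKO and 2.63 ± 0.178 FPKM in WT, so not every gene of the family stood higher.

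**Figure D2:**
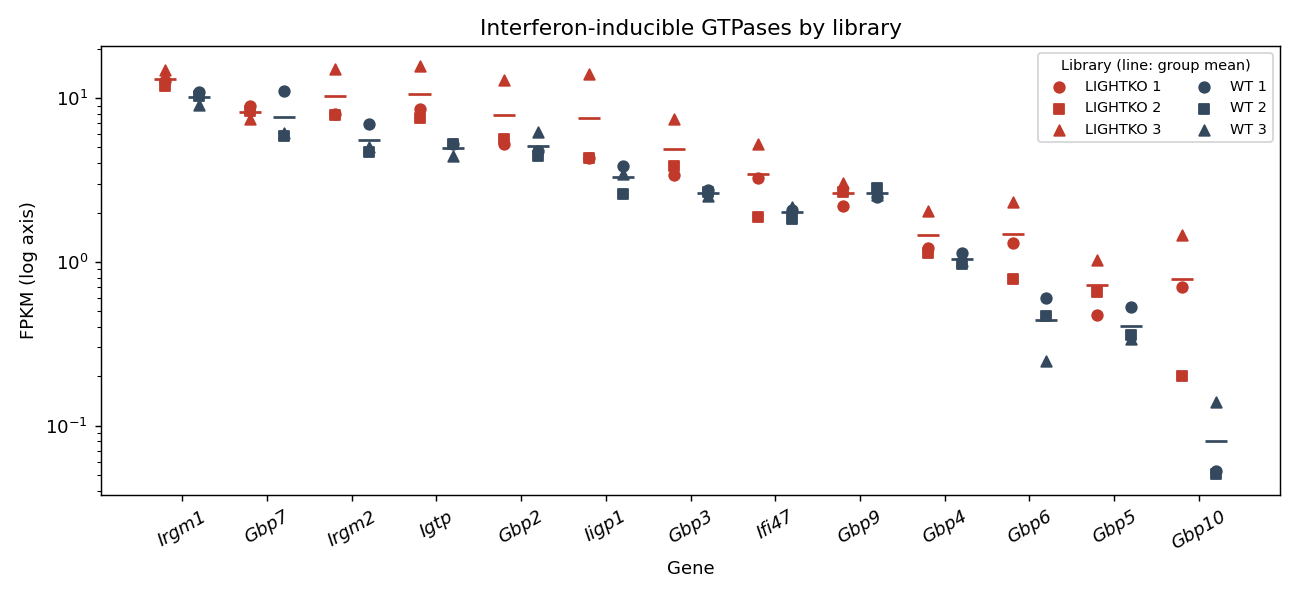
FPKM (log axis) of the 13 interferon-inducible GTPases in each library, with LIGHTKO left of WT for every gene, 1 marker shape per library number and a line at each group mean. Igtp, Irgm1, Irgm2, Iigp1, Gbp3, Gbp4, Gbp6 and Gbp10 show no overlap between the groups, but Gbp6 and Gbp10 are in the table only through LIGHTKO. The triangle of LIGHTKO library 3 is the highest point of 12 of the 13 genes, Gbp7 being the exception.

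The 5 PARPs, ADP-ribosyltransferases of the interferon response, had fold changes above 0 in every gene. Their median was 0.10 on the log2 scale, and 0.19 without LIGHTKO library 3, when Parp12 was at -0.01. Parp9, which works with the ubiquitin ligase Dtx3l, had 6.13, 6.38 and 6.31 FPKM in LIGHTKO, against 5.13, 5.39 and 5.46 FPKM in WT. Here LIGHTKO library 3 did not stand apart, and the log2 fold change was 0.20 ± 0.08 (SE; limma unadjusted p = 0.0470, adjusted p = 0.592) and 0.20 without that library. Parp9 overlaps Dtx3l on the opposite strand, and whether strand was used in counting is unknown here. Parp14, which modifies targets with single ADP-ribose units, had 4.48, 3.98 and 5.17 FPKM in LIGHTKO, against 3.35, 3.15 and 4.08 FPKM in WT. LIGHTKO library 2 was below WT library 3, and the limma adjusted p was 0.592. Parp10 averaged 7.87 ± 1.06 FPKM in LIGHTKO and 7.28 ± 0.774 FPKM in WT, with overlapping groups.

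Ifi30, a lysosomal thiol reductase of antigen processing that interferon gamma induces, was lower in LIGHTKO, as opposed to most genes of the gamma-biased list. Besides it only Gbp9 had a fold change below 0 among the 15 tested, by -0.01 on the log2 scale. It had 53.0, 57.6 and 45.7 FPKM in LIGHTKO libraries 1 to 3, against 77.0, 66.9 and 77.0 FPKM in WT libraries 1 to 3, so every LIGHTKO library was below every WT library. Its log2 fold change was -0.49 ± 0.12 (SE), a ratio of 0.710, with the lowest unadjusted limma p of the set (0.00441) and an adjusted p of 0.592. Without LIGHTKO library 3 it was -0.40. Ifi30 is also high in macrophages and other antigen-presenting cells. The 14 markers of monocytes and macrophages summed to 155, 136 and 171 FPKM in LIGHTKO, against 151, 162 and 259 FPKM in WT, with overlapping groups. Of these markers 7 had fold changes above 0 and 7 below. In 2 of the 14, Itgam and Cd68, every LIGHTKO library lay below every WT library, where the share over all genes is 8.8%. In 0 of the 14 every LIGHTKO library lay above, where that share is 7.76%. The part of these cells in the Ifi30 result was not tested.

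Set against each other, the type I-biased and gamma-biased lists differed in how far they rested on LIGHTKO library 3. On the log2 scale the type I-biased list had a median fold change of 0.25 with 19 of 23 genes above 0, and without LIGHTKO library 3 a median of 0.05 with 13 of 23 above 0. The gamma-biased list had a median of 0.35 with 13 of 15 tested genes above 0, and without LIGHTKO library 3 a median of 0.22 with 13 of 15 above 0. Genes of neither list had medians of 0.05 and 0.02. The difference between the lists was not tested, and the lists were chosen with earlier results of these data known.

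Relative to the WT mean, the median gene of the type I-biased list lay at -0.04, 0.07 and 0.60 on the log2 scale in LIGHTKO libraries 1, 2 and 3, against -0.07, -0.07 and 0.18 in WT libraries 1, 2 and 3. WT library 3 was thus above LIGHTKO libraries 1 and 2. The median gene of the gamma-biased list lay at 0.26, 0.21 and 0.58 in LIGHTKO, against 0.07, -0.05 and -0.05 in WT, and all LIGHTKO medians were above all WT medians. Type I-biased genes above every WT library numbered 6 of 23 in LIGHTKO library 1 (26.1%), 6 in library 2 (26.1%) and 17 in library 3 (73.9%). Gamma-biased genes above every WT library numbered 9 of 15 in LIGHTKO library 1 (60%), 8 in library 2 (53.3%) and 12 in library 3 (80%). Over all genes tested these shares were 18.4%, 30.2% and 35.4%, so the type I-biased share in LIGHTKO library 2 was below that of all genes. The lists include Oas1g, Oas2, Gbp5 and Gbp6, which the table holds only through LIGHTKO. With genes below a mean of 1 FPKM left out, the type I-biased median was 0.19 with 17 of 21 genes above 0, and 0.03 with 11 of 21 without LIGHTKO library 3. The gamma-biased median was then 0.35 with 11 of 13 genes above 0, and 0.22 with 11 of 13 without that library.

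**Figure D3:**
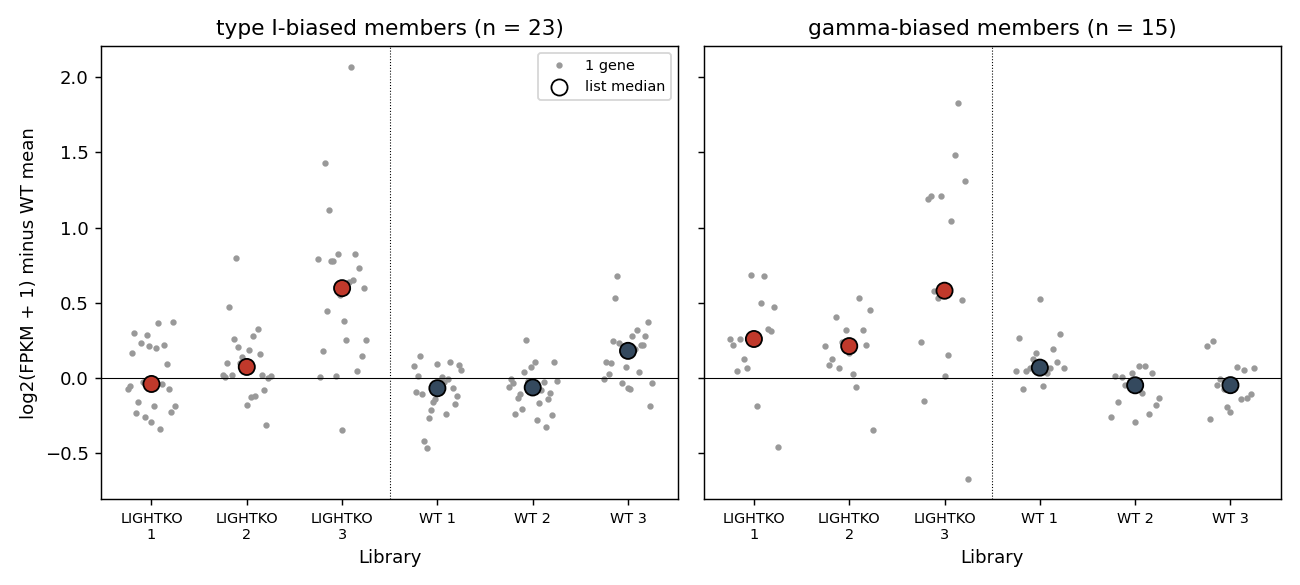
Level of each tested gene (grey points) in each library as log2(FPKM + 1) minus the mean of the 3 WT libraries, for the 23 type I-biased (left) and 15 gamma-biased genes (right), with the list median as a large circle, red in LIGHTKO and dark in WT. In the left panel the median of LIGHTKO library 3 (0.60) stands apart, and in the right panel the medians of all 3 LIGHTKO libraries, 0.21 to 0.58, lie above those of WT, -0.05 to 0.07.

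Further genes of the interferon pathway that the name rule did not take were read from a separate list, of which 53 of 61 were in the table. Of these 33 had fold changes above 0 (62.3%, against 47.9% of all genes) and 20 below, and the median was 0.06 on the log2 scale. None had a limma adjusted p under 0.05, 4 had an unadjusted p under 0.05 on the higher side and 2 on the lower side, where the shares over all genes are 4.34% and 3.74%. Cxcl10, a chemokine that attracts T cells and is induced by both interferon types, had 5.48, 9.08 and 8.70 FPKM in LIGHTKO, against 2.82, 3.06 and 4.75 FPKM in WT. Its log2 fold change was 0.94 ± 0.23 (SE; limma unadjusted p = 0.00476, adjusted p = 0.592), and 0.86 without LIGHTKO library 3, so it did not rest on that library. Tgtp1 and Tgtp2, near-identical immunity-related GTPases, summed to 6.11, 6.60 and 19.2 FPKM in LIGHTKO, against 4.97, 3.61 and 3.55 FPKM in WT. Psmb9, a subunit of the immunoproteasome, had 0.876, 1.04 and 1.27 FPKM in LIGHTKO, against 0.775, 0.445 and 0.399 FPKM in WT. On the lower side, Ly6e, a membrane-anchored interferon-stimulated protein, had 86.3, 75.6 and 74.5 FPKM in LIGHTKO, against 93.4, 91.1 and 110 FPKM in WT. Ifnlr1, the chain of the interferon lambda receptor that is particular to that receptor, had 1.16, 1.69 and 1.36 FPKM in LIGHTKO, against 2.39, 1.78 and 1.95 FPKM in WT. In each of these genes the groups did not overlap, and each had a limma adjusted p of 0.592. They were named for having the smallest unadjusted p of the list, so the lack of overlap adds little to that p. Of all 53 genes 7 lay higher in LIGHTKO without overlap and 2 lower, where the shares over all genes are 7.76% and 8.8%. The interferon genes Ifng and Ifnb1, and Mx1, Mx2, Gm12250, Cxcl9, Cxcl11 and Ido1, were on the list but not in the table, and so were not analysed here.

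Markers of other cell types are given beside these results. Of 13 markers of T and NK cells 3 were in the table (Cd3g, Lck and Nkg7), and they summed to 1.05, 1.66 and 2.53 FPKM in LIGHTKO libraries 1 to 3, against 0.651, 0.561 and 0.701 FPKM in WT libraries 1 to 3. All 3 have WT means under 0.5 FPKM and are in the table only through LIGHTKO, so a higher LIGHTKO sum follows from the table's lower limit and shows nothing on T and NK cells. Cd3g was listed at 0 in LIGHTKO library 1 and in WT library 3, and Nkg7 in WT library 2. The 13 GTPases summed to 60.2, 56.8 and 103 FPKM in LIGHTKO, against 52.4, 42.3 and 43.3 FPKM in WT. All LIGHTKO libraries were above all WT libraries in the GTPase sum, with LIGHTKO library 3 the highest. Of the markers of neutrophils 8 of 10 were in the table, all with fold changes below 0. Their median was -0.60 on the log2 scale, and -0.33 without LIGHTKO library 3. They summed to 47.0, 68.9 and 21.2 FPKM in LIGHTKO, against 65.6, 80.3 and 100 FPKM in WT. The proximal tubule genes Slc34a1, Lrp2 and Cubn were above every WT library in all LIGHTKO libraries, Lrp2 with 74.9, 96.2 and 157 FPKM in LIGHTKO, against 57.3, 68.8 and 54.3 FPKM in WT. They are 3 of the 11 epithelial markers, against 7.76% of all genes, and 0 of the 11 lay lower without overlap, against 8.8%. Of 6 markers of B and plasma cells 3 were in the table. Jchain, the joining chain of secreted antibodies, had 8.22, 7.16 and 7.44 FPKM in LIGHTKO, against 0.884, 0.284 and 0.784 FPKM in WT. It rose by 2.40 ± 0.16 on the log2 scale (SE; limma adjusted p = 0.0110), and by 2.41 without LIGHTKO library 3 (adjusted p = 0.0258). Mzb1, a plasma cell chaperone, had 0.967, 1.19 and 0.983 FPKM in LIGHTKO, against 0.911, 0.611 and 0.0719 FPKM in WT, without overlap (limma adjusted p = 0.598). Cd79b, a chain of the B cell receptor, is in the table only through LIGHTKO. The 2 dendritic cell markers in the table, Itgax and Zbtb46, summed to 2.85 to 3.31 FPKM in LIGHTKO and 2.84 to 3.96 FPKM in WT. The 10 markers of endothelium had a median log2 fold change of -0.02. The part of plasma cells, neutrophils, tubule cells or lymphocytes in the interferon results was not tested.

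**Figure D4:**
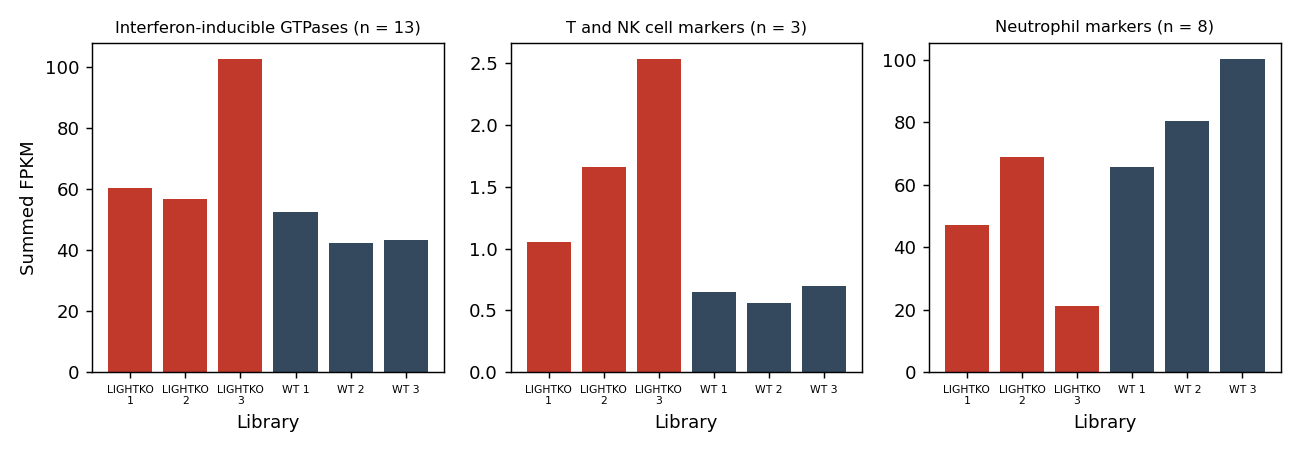
Summed FPKM per library (bars, LIGHTKO left of WT) of the 13 interferon-inducible GTPases, of the 3 T and NK cell markers in the table and of the 8 neutrophil markers in the table, each on its own axis from 0. LIGHTKO library 3 has the highest GTPase sum (103 FPKM), the highest T and NK marker sum (2.53 FPKM) and the lowest neutrophil marker sum (21.2 FPKM). The T and NK markers are in the table only through LIGHTKO, so the order of the groups in that panel follows from the table's lower limit.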

How the data were processed

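RNA of whole kidney was measured in 6 libraries, 3 LIGHTKO and 3 WT, grouped and numbered by the sample titles. Per the labels' protocols, TRIzol was used for extraction and a KAPA stranded kit for the libraries. The authors deposited FPKM. The submitters' processing notes name HISAT2, StringTie, FastQC and mouse build mm10, with no versions. Annotation and strand setting are not given in the sources used here. Each library's own table held the same values as the table of all libraries. FPKM carry no read counts, so depth is unknown and no counting error was computed.

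The 12836 of 13026 genes that averaged at least 0.5 FPKM were compared on the scale log2(FPKM + 1), LIGHTKO minus WT. The fit was limma 3.58.1 (R 4.3.3) with a trended prior variance, and two-sided p-values were adjusted over all these genes by Benjamini-Hochberg (threshold 0.05). The scale understates fold changes of low genes. An exact permutation test of 3 against 3 cannot go below p = 0.1, so none was used. The fit was tested on simulated data. The type I-biased and gamma-biased lists, the role groups, the further pathway genes and the cell markers were written from general knowledge of the genes, and the members and lists were chosen with earlier results of these data known. Medians and counts of lists are descriptions without a test. Single values of 2 members are not reported here. The rule for named genes took the receptors, Stat2, Irf1, Irf7 and Irf9, members without overlap and with a fold of at least 1.5, the 4 of smallest p and the most abundant in each role group, and the 6 pathway genes of smallest p. Ifi30, Ifi27l2a, Rsad2, Gbp2, Gbp4, Gbp5, Gbp7, Gbp9, Gbp10, Ifi47 and the markers named with values were chosen after their values were seen. All 70 members were matched in GENCODE M21, and copies were found there from 31-base words that a gene's transcripts have in common with other genes. Promoters are from RefSeq (GRCm38.p6), without chromosome 18. Alternatives were other pseudocounts, filters, scalings and variance models, the replicate number as a block, and each library left out in turn.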

Additional observations from a re-analysis of the deposited data

How the results depend on the processing

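No interferon gene passed limma's adjusted p of 0.05 under any alternative tried, the count being 0 each time, with 11 at an unadjusted p under 0.05 in the main analysis. Over all genes the count of calls was 15, and it was 52 with library weights and 0 with the replicate block, and leaving out each library in turn gave 0 to 11. The labels do not say whether the shared replicate numbers pair the libraries. Same-numbered libraries deviated from their group means with correlations of 0.146, -0.133 and -0.0193, and differently numbered ones with -0.144 to 0.18. With 3 libraries per group these values cannot decide whether the libraries were paired. The median log2 fold change of the members stayed above 0, between 0.04 and 0.20, that of the type I-biased list between 0.05 and 0.34, and that of the gamma-biased list between 0.22 and 0.52. With libraries left out in turn these were 0.04 to 0.19, 0.05 to 0.33 and 0.22 to 0.41, and the lowest values came without LIGHTKO library 3.

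Of 52 named genes 15 changed sign under at least 1 alternative, and none of them was called. With TPM scaling Irf3 was at 0.0145 and Ddx58 at 0.0224. With library weights Ifnar1 was at 0.0553, Stat3 at 0.0166, Irf3 at 0.0695, Ifi204 at -0.0708, Ddx58 at 0.0107, Ifitm3 at 0.0432 and Ifitm2 at 0.0752. Leaving out each library gave ranges of -0.0625 to 0.0359 for Ddx58, -0.151 to 0.00337 for Ifnar1, -0.0277 to 0.404 for Irf7, -0.428 to 0.0948 for Stat3, -0.0754 to 0.0306 for Irf3, -0.0128 to 0.204 for Ifi205, -0.0826 to 0.185 for Ifi204, -0.108 to 0.232 for Ifit2, -0.487 to 0.018 for Ifitm10, -0.203 to 0.753 for Ifitm1, -0.00989 to 0.129 for Parp12, -0.0498 to 0.152 for Ifnar2, -0.0355 to 0.246 for Bst2, -0.297 to 0.0812 for Ifitm3 and -0.169 to 0.0541 for Ifitm2. The cause was not tested. No scaling moved the median of all genes by as much as 0.1. With no counts deposited, precision at low levels cannot be stated.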
